A study of Mus musculus with 16 samples.

Results

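The motor subunits described here are 46 mouse genes chosen by name: 31 kinesin genes, 12 cytoplasmic dynein genes and 3 adaptors or regulators of dynein. Of these, 43 had at least 1 annotated probe on the Illumina mouse bead array, and 39 were measured by a probe that passed the filter for dim signal, among 10624 genes measured in all. RNA came from brain at embryonic day 18 on a NOR/CD-1 background, and 8 HeCo mutant samples and 8 wild-type samples were hybridised to 1 array each. HeCo mice carry a mutation of Eml1 throughout the body and form a band of misplaced neurons under the cerebral cortex, and Eml1 encodes a protein that binds microtubules. The question put to the data is how far transcripts of the motors that run on microtubules differ in the mutant brain. The labels do not say that each array holds a separate animal, so the p-values measure the spread between these 16 samples only.

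Kinesins and dyneins are motors that use ATP to walk along microtubules. Most kinesins move towards the plus end and carry vesicles, mitochondria and ciliary cargo outward, while cytoplasmic dynein moves towards the minus end and carries cargo back to the cell body, pulls on the nucleus of migrating neurons and positions the spindle. A further set of kinesins works mainly in mitosis, and in the embryonic brain that set acts chiefly, though not only, in dividing progenitors. Most transport motors are abundant in neurons.

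Signals are given on the log2 scale after background correction and normalization, and each difference is HeCo minus wild type. Eml1 set the labels apart on all arrays: its brighter probe averaged 4.51 in HeCo and 8.51 in wild type, and was detected on 0 of 8 HeCo arrays and on 8 of 8 wild-type arrays. A second Eml1 probe ran the other way, at 6.51 in HeCo and 4.57 in wild type. Markers of neurons (9 of 11 measured) had mean signals of 10.69 to 10.98 on the HeCo arrays and 10.69 to 10.98 on the wild-type arrays. Markers of diencephalon, midbrain and hindbrain (21 of 27 measured) were low on 2 arrays, HeCo 7 at 5.24 and HeCo 16 at 5.59, while the other arrays lay between 6.96 and 7.68. Arrays are numbered by sample title. HeCo holds 5 to 8 and 13 to 16, and wild type holds 1 to 4 and 9 to 12, so that 1 to 8 and 9 to 16 each hold 4 arrays of each genotype; what the numbers stand for is not given in the sources used here. Mean deposited signal per array was 374.9 to 597.9, and 17694 to 19553 of 45281 probes were detected.

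None of the 39 measured motor genes passed the threshold of 0.05 for the limma adjusted p over all genes, where 6 of 10624 genes passed (0.0565%). At an unadjusted limma p under 0.05 there was 1 of 39, Dynlt3, higher in HeCo, against 7.22% of all genes (3.85% higher and 3.37% lower in HeCo). In no motor gene did the HeCo arrays and the wild-type arrays separate without overlap, which 0.113% of all genes did. The differences ran between -0.19 (Dync1h1) and 0.21 (Kif21b), with a median of 0.03 and 25 of 39 above 0, against a median of -0.01 and 48.1% above 0 over all genes. These are the small differences of genes measured with a median standard error of 0.08. The 95% interval of each of the 39 genes lay within 1.5-fold in either direction, from 0.751-fold at the lowest to 1.37-fold at the highest. The intervals of 10427 of the 10624 genes did so. These are intervals of normalized signal. The offset used in processing shrinks differences of dim genes such as Kif20a, at 5.07 in HeCo and 5.10 in wild type. In bulk tissue, fewer cells of a type and less RNA per cell cannot be told apart.

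**Figure D1:**
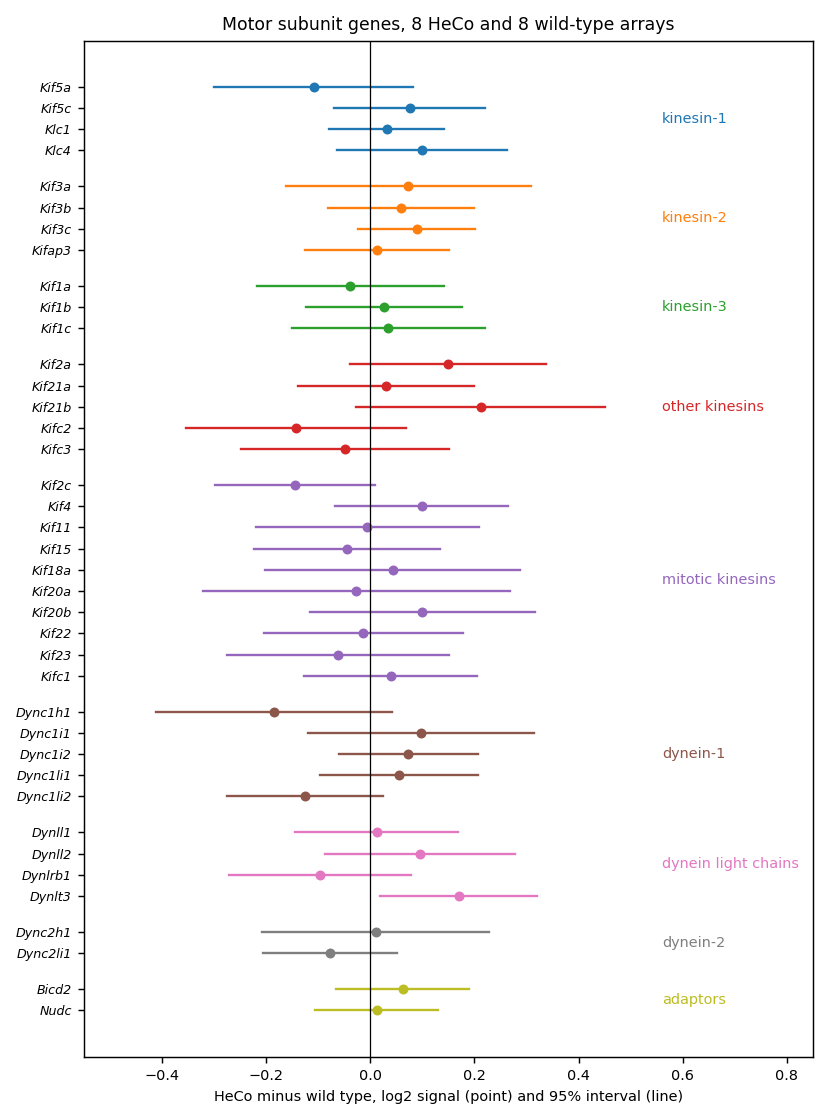
Difference between HeCo and wild type for the 39 measured motor subunit genes, grouped by role; the x axis is the difference in log2 signal, points are the estimates from 8 HeCo and 8 wild-type arrays, and lines are 95% intervals. All intervals except that of Dynlt3 span 0, and none reaches a 1.5-fold difference.

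Kinesin-1 is the main plus-end transport motor of axons, built from paired heavy chains and paired light chains that bind cargo. Kif5a, a heavy chain made mainly in neurons, ranged from 9.53 to 9.96 with a median of 9.81 on the HeCo arrays, against 9.38 to 10.15 with a median of 9.96 on the wild-type arrays. The HeCo values lay inside the wild-type range, whose lowest and highest arrays were wild type 1 and wild type 10. The difference was -0.11 (SE 0.09, limma adjusted p = 0.839), with 7 of 8 HeCo arrays below the wild-type mean; it was -0.18 without wild type 1 and -0.07 without HeCo 5. Kif5c, the other neuronal heavy chain, ranged from 12.91 to 13.32 (median 13.15) in HeCo and from 12.87 to 13.29 (median 13.06) in wild type, a difference of 0.08 (SE 0.07, limma adjusted p = 0.847). Both neuronal heavy chains thus overlapped almost fully between genotypes. Kif5b, the heavy chain found in most tissues, had 3 probes, none of which passed the filter: 2 were detected on no array and the third on 4 HeCo and 2 wild-type arrays. Of the light chains, Klc1 ranged from 12.47 to 12.70 (median 12.62) in HeCo and from 12.44 to 12.69 (median 12.56) in wild type, a difference of 0.03 (SE 0.05). Klc4 ranged from 7.62 to 8.03 (median 7.86) in HeCo and from 7.58 to 7.96 (median 7.79) in wild type, a difference of 0.10 (SE 0.08, limma adjusted p = 0.828) with 6 of 8 HeCo arrays above the wild-type mean. Klc2 had no annotated probe and was not analysed here.

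Kinesin-2 carries cargo into cilia and along axons as a trimer of Kif3a, Kif3b and the adaptor Kifap3, and Kif3c is a neuronal partner of Kif3a. All 4 genes had a difference above 0, from 0.01 (Kifap3) to 0.09 (Kif3c). Kif3c ranged from 12.10 to 12.28 with a median of 12.25 in HeCo, against 11.92 to 12.26 with a median of 12.17 in wild type. On 7 of 8 HeCo arrays it was above the wild-type mean, the exception being HeCo 16, and the groups overlapped over most of the HeCo range. The difference was 0.09 (SE 0.05, limma adjusted p = 0.762), and without wild type 10, the lowest array of that group, it was 0.06. Kif3a, the subunit shared by the motors with Kif3b and with Kif3c, ranged from 9.97 to 10.78 (median 10.21) in HeCo. In wild type it ranged from 9.91 to 10.59 (median 10.19). Its difference of 0.07 (SE 0.11, limma adjusted p = 0.910) rested on HeCo 15, the highest array, and without that array it was -0.0015.

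Kinesin-3 motors carry precursors of synaptic vesicles (Kif1a and Kif1b), mitochondria (Kif1b) and other vesicles (Kif1c). Kif1a ranged from 13.54 to 14.16 (median 13.97) in HeCo and from 13.73 to 14.26 (median 13.92) in wild type, a difference of -0.04 (SE 0.09, limma adjusted p = 0.930). The lowest HeCo array was HeCo 16, and without it the difference was 0.01. Kif1b ranged from 11.85 to 12.30 (median 12.05) in HeCo and from 11.89 to 12.18 (median 12.00) in wild type, a difference of 0.03 (SE 0.07), and Kif1c differed by 0.03 (SE 0.09).

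The other transport and microtubule-regulating kinesins held the largest positive difference of the motor genes. Kif21b, a kinesin of neurons that slows microtubule growth, ranged from 6.17 to 6.84 with a median of 6.42 in HeCo, against 5.72 to 6.50 with a median of 6.33 in wild type. The wild-type range is wide because of wild type 10, which lay at 5.72, and 7 of 8 HeCo arrays were above the wild-type mean. The difference was 0.21 (SE 0.12, limma adjusted p = 0.728), and 0.13 without wild type 10. Its relative Kif21a differed by 0.03 (SE 0.08). Kif2a, which takes microtubules apart from their ends and restrains axon branching, ranged from 9.69 to 10.32 (median 9.97) in HeCo and from 9.60 to 10.16 (median 9.80) in wild type. That difference was 0.15 (SE 0.09, limma adjusted p = 0.762), with 6 of 8 HeCo arrays above the wild-type mean. Kifc2, a neuronal kinesin of the minus-end-directed class, ranged from 7.68 to 8.35 (median 8.08) in HeCo and from 7.97 to 8.59 (median 8.20) in wild type, a difference of -0.14 (SE 0.10, limma adjusted p = 0.799). Its lowest arrays were HeCo 7 and HeCo 16, and without both the difference was -0.04. Kifc3, another minus-end-directed kinesin, differed by -0.05 (SE 0.10). Kif7, a regulator of Hedgehog signalling in the cilium, and Kif9, a kinesin of motile cilia, had no probe past the filter, with detection on at most 2 HeCo arrays and 0 wild-type arrays for any of their 3 probes. Kif26b had no annotated probe and was not analysed here.

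All 10 mitotic kinesins were measured, and their differences lay between -0.14 (Kif2c) and 0.10 (Kif20b), with a median of -0.01 and 4 of 10 above 0. Kif2c, which depolymerises microtubules at centromeres, ranged from 7.70 to 8.24 with a median of 7.95 in HeCo, against 7.98 to 8.25 with a median of 8.11 in wild type. On 7 of 8 HeCo arrays it was below the wild-type mean, HeCo 7 being the exception and HeCo 15 the lowest. The difference was -0.14 (SE 0.07, limma adjusted p = 0.712), and -0.19 without HeCo 7 and HeCo 16. Kif4, which organises condensed chromosomes and the central spindle, ranged from 6.85 to 7.30 (median 7.18) in HeCo and from 6.84 to 7.21 (median 7.05) in wild type, a difference of 0.10 (SE 0.08, limma adjusted p = 0.833). Kif11, which pushes the spindle poles apart, ranged from 7.17 to 7.89 (median 7.45) in HeCo and from 7.13 to 7.77 (median 7.48) in wild type. Its difference of -0.0059 (SE 0.10, limma adjusted p = 0.992) was the smallest in size among the motor genes and had the largest p. Kif20b, which acts in the last step of cell separation, differed by 0.10 (SE 0.10), by 0.05 without wild type 10 and by 0.03 without HeCo 7 and HeCo 16. Kif22, which moves chromosome arms, differed by -0.01 (SE 0.09), and by -0.11 without HeCo 7 and HeCo 16. Kif23 ranged from 8.15 to 9.00 (median 8.71) in HeCo and from 8.46 to 9.06 (median 8.68) in wild type, a difference of -0.06. Kif15 (a second motor of the spindle poles), Kif18a (chromosome alignment), Kif20a and Kif23 (both of the central spindle) and Kifc1 (pole focusing) differed by -0.06 to 0.04. Kif20a was the only measured motor gene not detected on all 16 arrays, with detection on 5 of 8 HeCo arrays and 5 of 8 wild-type arrays. The 18 measured markers of dividing cells, none of them a kinesin, had a median difference of 0.05, with 15 above 0 and 0 past the threshold. Their mean signal differed by 0.04, and by -0.03 without HeCo 7 and HeCo 16; that of the 10 mitotic kinesins differed by -0.0019, and by -0.06 without both arrays.

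Cytoplasmic dynein-1 is the minus-end transport motor of the cell, with paired heavy chains that hold the motor domain, and with intermediate and light intermediate chains that bind dynactin and adaptors. Its single heavy chain gene, Dync1h1, ranged from 8.81 to 9.35 with a median of 9.03 on the HeCo arrays, against 8.72 to 9.61 with a median of 9.28 on the wild-type arrays. The lowest value of all belonged to wild type 1 and the highest to wild type 10, so that the HeCo arrays lay inside the wild-type range, 7 of 8 below the wild-type mean. The difference was -0.19 (SE 0.11, limma adjusted p = 0.747), the largest negative one among the motor genes. It was -0.26 without wild type 1 and -0.13 without wild type 10. Dync1li2, a light intermediate chain, ranged from 8.59 to 9.01 (median 8.76) in HeCo and from 8.64 to 9.06 (median 8.92) in wild type, a difference of -0.13 (SE 0.07, limma adjusted p = 0.744) with 7 of 8 HeCo arrays below the wild-type mean. The other light intermediate chain, Dync1li1, differed by 0.06 (SE 0.07). The intermediate chain Dync1i2, made in most tissues, ranged from 13.10 to 13.44 (median 13.23) in HeCo and from 12.92 to 13.33 (median 13.18) in wild type, a difference of 0.07 (SE 0.06, limma adjusted p = 0.842), and 0.04 without wild type 10. The neuronal intermediate chain Dync1i1 had a difference of 0.10 (SE 0.10, limma adjusted p = 0.856), and its values by array are given with those of HeCo 7 and HeCo 16.

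The dynein light chains hold the intermediate chains together and bind other proteins as well. Dynlt3, a light chain of the Tctex class, ranged from 8.85 to 9.15 with a median of 9.03 on the HeCo arrays, against 8.63 to 9.06 with a median of 8.87 on the wild-type arrays. All 8 HeCo arrays lay above the wild-type mean, and the groups still overlapped, the highest wild-type array being wild type 3. The difference was 0.17 (SE 0.07, a 1.12-fold level with a 95% interval of 1.01 to 1.248), with an unadjusted limma p of 0.029 and a limma adjusted p of 0.675. Within title numbers 1 to 8 it was 0.11 and within 9 to 16 it was 0.23. It did not pass the threshold over all genes, and 1 gene at that unadjusted p among 39 is no more than the share over all genes. Dynlrb1, of the roadblock class, ranged from 11.86 to 12.35 (median 12.19) in HeCo and from 11.97 to 12.51 (median 12.26) in wild type, a difference of -0.10 (SE 0.08, limma adjusted p = 0.842). Dynll1 and Dynll2, the LC8 light chains, differed by 0.01 (SE 0.08) and 0.10 (SE 0.09), the second with 7 of 8 HeCo arrays above the wild-type mean. Dynlt1b, the other Tctex light chain listed, was detected on 4 HeCo and 3 wild-type arrays and did not pass the filter.

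**Figure D2:**
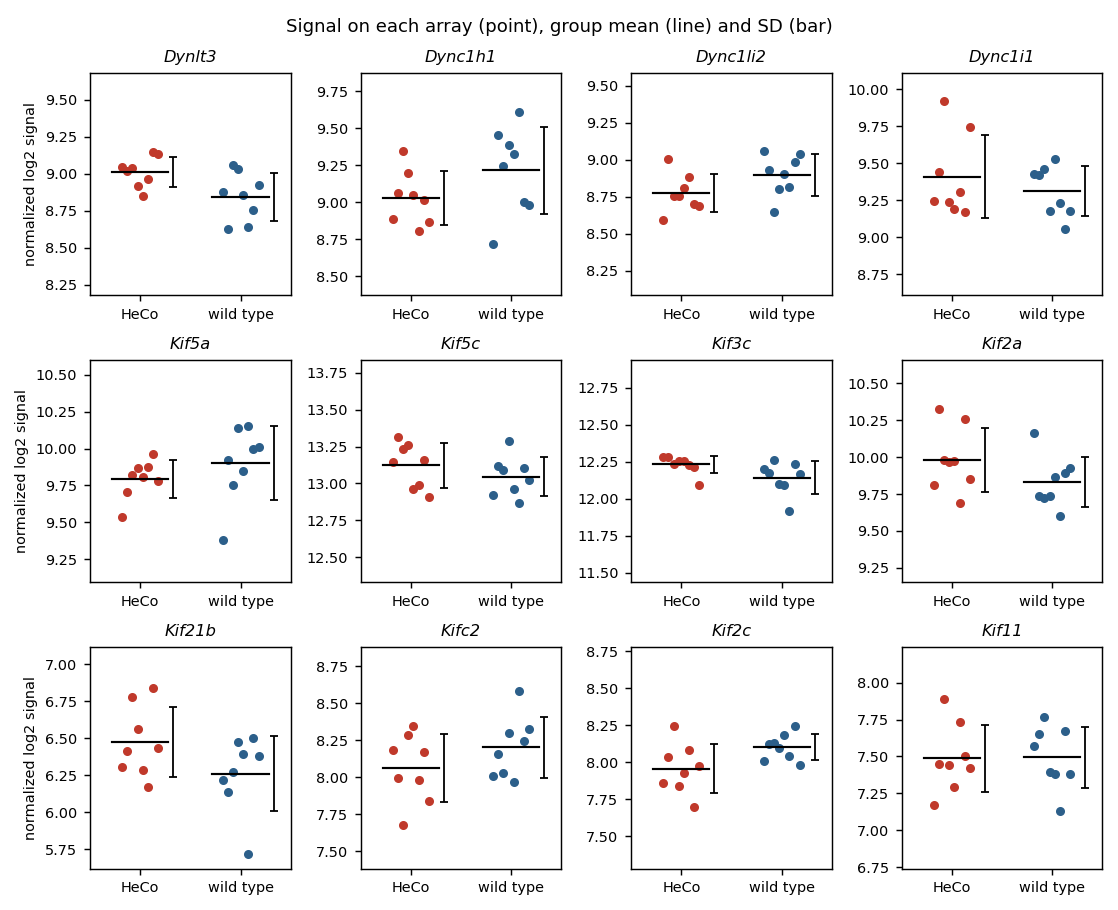
Normalized log2 signal (y axis) of 12 motor genes on each of 8 HeCo and 8 wild-type arrays (points), with the group mean (line) and SD (bar). Every panel spans the same number of log2 units around the gene's own mean, and in every panel the HeCo and wild-type points overlap.

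Dynein-2 returns cargo from the tip of the cilium. Its heavy chain Dync2h1 ranged from 7.34 to 7.78 (median 7.63) in HeCo and from 7.24 to 7.94 (median 7.65) in wild type, a difference of 0.01 (SE 0.11, limma adjusted p = 0.985). The light intermediate chain Dync2li1 ranged from 8.66 to 9.03 (median 8.86) in HeCo and from 8.84 to 8.99 (median 8.96) in wild type, a difference of -0.08 (SE 0.06, limma adjusted p = 0.828). The wild-type arrays thus lay within the HeCo range for the light intermediate chain, and the HeCo arrays within the wild-type range for the heavy chain. Of the adaptors, Bicd2, which links dynein to vesicles and to the nucleus, differed by 0.06 (SE 0.06) and Nudc, a cochaperone of the dynein regulator Lis1, by 0.01 (SE 0.06). Bicd1 had no annotated probe and was not analysed here.

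Several motor genes had more than 1 probe, and these did not always run the same way. Of 105 probes annotated to the motor genes, 70 were kept, 30 were detected on no array and 5 on too few arrays. None of the 70 passed the threshold over all kept probes, where 16 of 18532 did (0.0863%), and 2 had an unadjusted limma p under 0.05, against 6.98% of all kept probes. One was the only kept probe of Dynlt3. The other was 1 of 7 kept probes of Kif1b: ILMN_2587761 ranged from 6.00 to 6.75 with a median of 6.37 in HeCo, against 5.45 to 6.30 with a median of 6.03 in wild type, a difference of 0.32 (SE 0.12, limma adjusted p = 0.598 over the kept probes). The other 6 Kif1b probes differed by -0.09 to 0.14, and the brightest, which stood for the gene, by 0.03. Which exons or isoforms of Kif1b the 7 probes match was not analysed here.

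The kept probes differed in sign for 7 of the 17 motor genes that had several: Kif5a, Klc1, Kif3a, Kif1b, Kif23, Dync1i2 and Dync2h1. For Kif5a the brightest probe gave -0.11 and the other 2 gave 0.07 (SE 0.09) and 0.06 (SE 0.14). Kif23, a subunit of the centralspindlin complex, had probes at -0.06, 0.12, 0.08 and -0.08, with standard errors of 0.08 to 0.11. Dync1i2 had probes at 0.07, 0.04 and -0.09, Klc1 had 5 probes between -0.08 and 0.03, Kif3a had probes at 0.07 and -0.04, and Dync2h1 had probes at 0.01 and -0.04. Every one of these probe values had a 95% interval that spanned 0, apart from that of the single Kif1b probe.

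**Figure D3:**
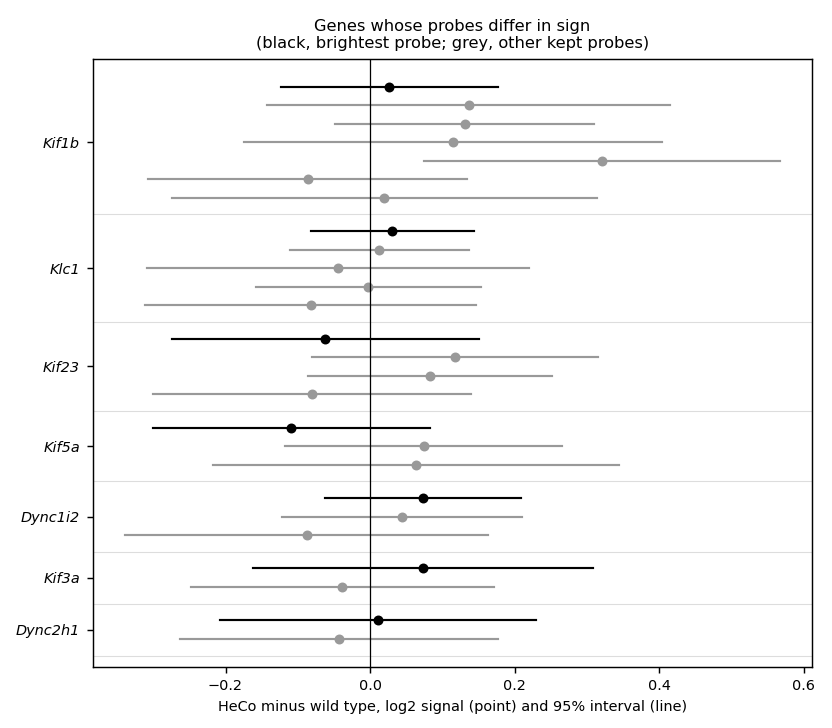
Difference in log2 signal, HeCo minus wild type (x axis), for each kept probe of the 7 motor genes whose probes differed in sign; points are estimates from 8 HeCo and 8 wild-type arrays and lines are 95% intervals, with the brightest probe of each gene in black and the others in grey. The interval of 1 Kif1b probe, at 0.32, lies above 0, and all others span 0.

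HeCo 7 and HeCo 16, the arrays low for markers of other brain regions, both lay above the other 14 arrays for 2 of the 39 motor genes (3.09% of all genes did so) and both below for 1 (5.6% of all genes), counts near the shares over all genes. Dync1i1 had 9.92 on HeCo 7 and 9.75 on HeCo 16, against 9.17 to 9.44 on the other 6 HeCo arrays and 9.06 to 9.53 on the wild-type arrays. Its second probe gave the same order, with 9.49 and 9.17 on HeCo 7 and HeCo 16 and 8.69 to 9.11 on the other 14 arrays. Without these 2 arrays, the Dync1i1 difference was -0.04 in place of 0.10. Kif22 had 10.27 on HeCo 7 and 10.17 on HeCo 16, with the other 14 arrays between 9.65 and 10.15; without both its difference was -0.11 in place of -0.01. Kifc2 had 7.68 and 7.84, with the other 14 between 7.97 and 8.59. Both arrays were also the highest of all 16 for the markers of dividing cells, at 8.52 and 8.51 against 8.04 to 8.40 on the others, and HeCo 16 was highest of all for markers of the meninges (7 of 8 measured), at 7.93, with wild type 3 at 7.91 and HeCo 7 at 7.87.

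Among the wild-type arrays, wild type 10 was the lowest for 12 of the 39 motor genes and the highest for 6, against 22.6% and 22.8% of all genes. Its low values included Kif3a, Kif3b, Kif3c, Kif5c, Kif2a, Kif21a, Kif21b and Dync1i2, and its high values included Kif5a, Dync1h1, Kif20a and Kif23. HeCo 6 was the highest HeCo array for 11 of 39 motor genes, among them Kif5c, Kif3c, Kif1a, Kif2a and Dync1i2, against 12.3% of all genes.

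**Figure D4:**
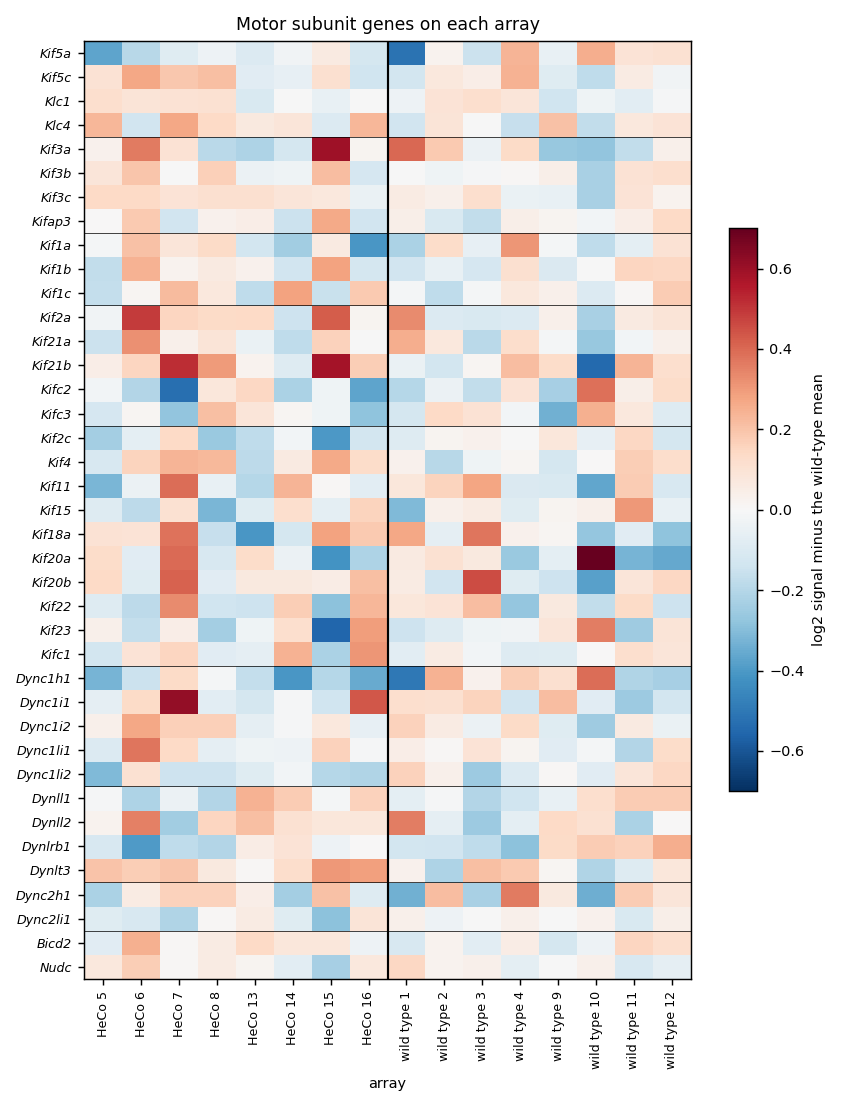
Log2 signal minus the wild-type mean (colour) of the 39 measured motor genes (rows, by role) on the 8 HeCo arrays (left) and 8 wild-type arrays (right of the line); the colours stop at the ends of the scale. Single arrays such as HeCo 7, HeCo 15 and wild type 10 hold the strongest colours, and no row is of 1 colour in one genotype and of the other colour in the other genotype.

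Because the mitotic kinesins act chiefly in dividing cells, each motor gene was set against markers of those cells. The mean signal of the 18 measured markers of dividing cells was used across the 16 arrays, both values coming from the same hybridization. Among the 10 mitotic kinesins, 8 correlations were positive, with a median Pearson r of 0.475, and among the 29 other motor genes 15 were positive, with a median r of 0.029; over 10605 genes 48.9% were positive. In a limma fit with the marker mean as covariate, adjusted over all 10605 genes, 2 mitotic kinesins passed in the positive direction (1.17% of all genes) and 1 other motor gene in the negative direction (3.26% of all genes). Kif22 had the highest correlation, with r = 0.82 (permutation p = 0.0001), Spearman's rho = 0.78 (permutation p = 0.0007) and a limma adjusted p of 0.00889. Kif11 had r = 0.71 (permutation p = 0.0021), rho = 0.70 (permutation p = 0.00339) and a limma adjusted p of 0.0422. Kifc2, the neuronal minus-end-directed kinesin, had r = -0.81 (permutation p = 6e-05), rho = -0.73 (permutation p = 0.00171) and a limma adjusted p of 0.00959. The signals of Kif22 and Kif11 were high, and that of Kifc2 low, on most arrays with a high marker mean; HeCo 16, with a marker mean of 8.51, had only 7.42 for Kif11.

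These 3 relations had the same sign within each genotype. The 3 genes were picked over these same arrays, so the values within a genotype are no separate test, and their permutation p-values are unadjusted. Kif3c, named after these values were seen because its sign differed between genotypes, had r = -0.71 in HeCo (exact permutation p = 0.03). Its Spearman's rho in HeCo was -0.68 (exact permutation p = 0.0701). In wild type Kif3c had r = 0.82 (exact permutation p = 0.00893) and rho = 0.74 (exact permutation p = 0.0458). Its lowest HeCo array, HeCo 16, had a high marker mean (8.51). Its lowest wild-type array, wild type 10, had the lowest marker mean (8.04). The part of these arrays in the Kif3c values was not tested. Kif22 had r = 0.86 over the 8 HeCo arrays (exact permutation p = 0.0103) and r = 0.83 over the 8 wild-type arrays (exact permutation p = 0.0143). Kif11 had r = 0.70 in HeCo (exact permutation p = 0.0462) and r = 0.74 in wild type (exact permutation p = 0.0362). Kifc2 had r = -0.91 in HeCo (exact permutation p = 0.00228) and r = -0.71 in wild type (exact permutation p = 0.053). HeCo 7 and HeCo 16 were also the arrays farthest from the median of the marker mean; without them r was 0.72 for Kif22 (permutation p = 0.00383), 0.78 for Kif11 (permutation p = 0.00139) and -0.67 for Kifc2 (permutation p = 0.00782). Over these 14 arrays, and within either genotype, no mitotic kinesin passed the limma adjustment over all genes. Within title numbers 1 to 8 and 9 to 16, Kif22 had r = 0.89 and 0.75 and Kif11 had r = 0.82 and 0.67; within the same runs of description numbers, Kif22 had r = 0.78 and 0.83, while Kif11 had r = 0.14 for numbers 1 to 8 and 0.89 for numbers 9 to 16.

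Kif20b (r = 0.69, limma adjusted p = 0.0733) and the dynein chain Dync1i1 (r = 0.65, limma adjusted p = 0.0515) came next and did not pass. Without HeCo 7 and HeCo 16 they had r = 0.56 and r = 0.27. Kif23 (r = -0.0011) and Kif20a (r = -0.18), both motors of the central spindle, did not follow the markers over all 16 arrays, and Kif23 had r = 0.49 within HeCo and r = -0.68 within wild type, with exact permutation p = 0.221 and 0.0663. The brightest of its 4 probes was used for this comparison. Wild type 10 had the lowest marker mean of all arrays, at 8.04. It also had the highest signal of Kif23 (9.06) and of Kif20a (5.88), and its part in these correlations was not tested.

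**Figure D5:**
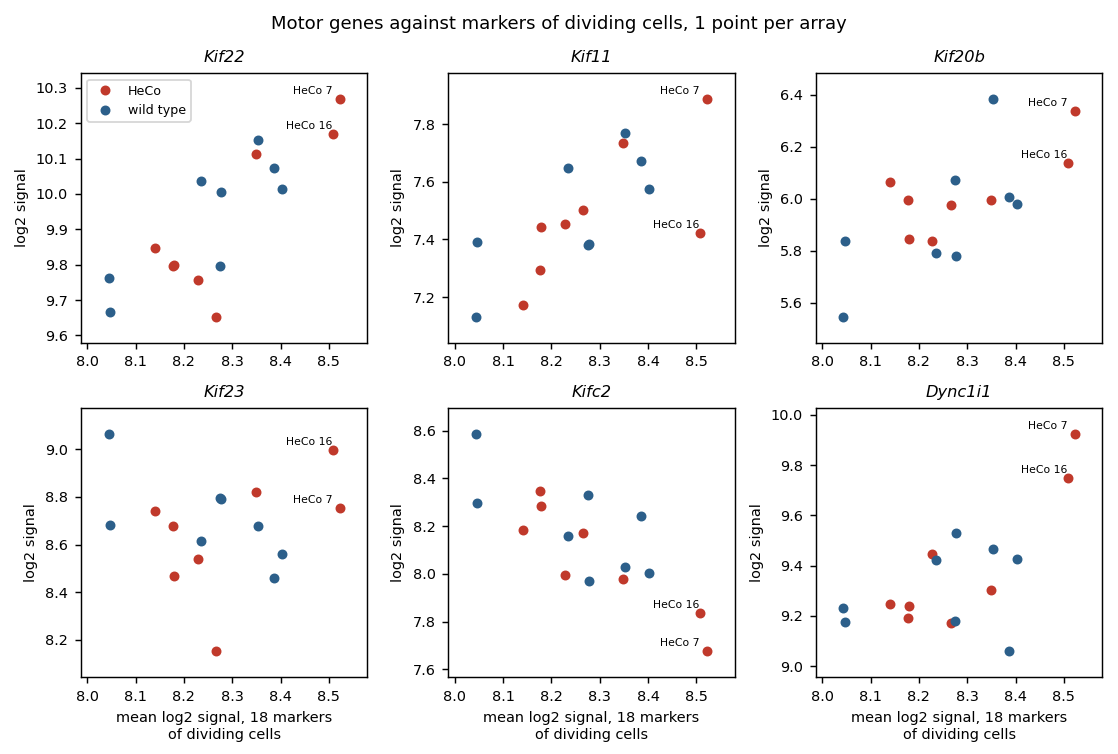
Log2 signal of 6 motor genes (y axes) against the mean log2 signal of 18 markers of dividing cells (x axes), 1 point per array, with HeCo in red and wild type in blue. Kif22, Kif11 and Kif20b run upward and Kifc2 downward, Kif23 shows no trend over all arrays, and the trend of Dync1i1 lies mainly in HeCo 7 and HeCo 16.

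The stretches of DNA before the starts of Kif22 and Kif11, which passed, and of Kif20b and Kif23, which did not, are shown to let the letters be compared. The genes shown were chosen after the correlations were seen. Many genes that peak in mitosis carry a CCAAT box and a cell cycle genes homology region (CHR) close to their start. The 250 bases before the RefSeq start (build GRCm38.p6, 5′ to 3′ on the strand of the gene) were searched on both strands for CCAAT and for the CHR letters TTTGAA or TTCGAA, and matches are in capitals. Kif22 lies at chr7:127042421-127042670 on the minus strand, Kif11 at chr19:37376132-37376381 on the plus strand, Kif20b at chr19:34922108-34922357 on the plus strand and Kif23 at chr9:61946800-61947049 on the minus strand.
Kif22: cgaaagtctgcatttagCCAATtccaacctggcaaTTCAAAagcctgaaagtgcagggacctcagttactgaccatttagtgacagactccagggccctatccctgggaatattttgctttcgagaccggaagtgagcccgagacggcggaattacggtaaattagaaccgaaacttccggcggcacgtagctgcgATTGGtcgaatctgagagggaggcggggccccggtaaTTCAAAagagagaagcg
Kif11: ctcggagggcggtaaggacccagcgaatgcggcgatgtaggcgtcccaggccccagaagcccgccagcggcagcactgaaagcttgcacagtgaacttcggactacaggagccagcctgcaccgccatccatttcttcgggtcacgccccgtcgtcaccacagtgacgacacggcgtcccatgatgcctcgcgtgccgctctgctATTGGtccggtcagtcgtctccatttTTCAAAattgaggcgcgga
Kif20b: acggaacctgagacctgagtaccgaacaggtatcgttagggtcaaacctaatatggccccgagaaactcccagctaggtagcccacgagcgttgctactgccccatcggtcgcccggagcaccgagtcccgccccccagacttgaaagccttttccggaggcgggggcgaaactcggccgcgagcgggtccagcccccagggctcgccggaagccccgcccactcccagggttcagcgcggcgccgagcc
Kif23: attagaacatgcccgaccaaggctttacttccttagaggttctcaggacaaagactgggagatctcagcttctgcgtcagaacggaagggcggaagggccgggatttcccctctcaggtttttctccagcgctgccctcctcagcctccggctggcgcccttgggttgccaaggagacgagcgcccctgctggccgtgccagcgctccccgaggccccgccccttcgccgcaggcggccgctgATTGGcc
Kif22 held 2 CHR and 2 CCAAT matches, with a CHR match beginning 17 bases and a CCAAT match 54 bases before the start. Kif11 held 1 of each, 19 and 45 bases before the start. Kif23 held 1 CCAAT match and no CHR match, and Kif20b held neither. Among the mitotic kinesins not shown, Kif15 held 2 CHR matches, 1 of them 19 bases before the start, and Kif2c held 1. Neither followed the markers past the threshold (limma adjusted p = 0.432 and 0.561). Kif4 and Kifc1 held 2 CCAAT matches each and no CHR match, Kif18a held neither, and none of these passed. Of the 9 mitotic kinesins with a window used here, 4 had a CHR match, 5 a CCAAT match and 2, Kif22 and Kif11, had both. The remaining mitotic kinesin, Kif20a, which did not follow the markers (r = -0.18), was left out of the search. Among 32851 windows of the same length, 17.1% had a CHR match, 33.8% a CCAAT match and 6.02% both. A match describes the letters only and is not a site of binding, and a window with no match says nothing about the factor.

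Other genes of the pathways, from lists by function, gave 0 genes past the threshold. Of the other kinesins, 5 of 17 were measured and differed by -0.07 (Kif13b, a kinesin-3 motor) to 0.06 (Kif27, a relative of Kif7). Of 7 further cytoplasmic dynein subunits, 4 were measured: Wdr60, an intermediate chain of dynein-2, had a difference of 0.14 (SE 0.07, limma adjusted p = 0.702) and the roadblock light chain Dynlrb2 one of -0.15 (SE 0.14, limma adjusted p = 0.842). Among 26 of 29 adaptors and regulators measured, 16 had a difference above 0, with a median of 0.02. The scaffold Spag9, which binds both kinesin-1 and dynactin, had 0.14 (SE 0.06, limma adjusted p = 0.678) and Clstn1, a membrane protein that couples vesicles to kinesin light chain, had -0.15 (SE 0.08, limma adjusted p = 0.712). The axonemal dyneins, which bend motile cilia, were measured in 6 of 18 cases and included Dnaic1 at -0.13 (SE 0.11) and Dnal1 at 0.15 (SE 0.14), while markers of ependyma and motile cilia (8 of 10 measured) had a mean difference of -0.11.

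Dynactin, the complex that links dynein to cargo and keeps it on the microtubule, had 9 of 12 genes measured, 7 of them with a difference below 0. Dctn1, its largest subunit, which binds both microtubules and the dynein intermediate chain, averaged 7.41 ± 0.28 in HeCo and 6.79 ± 0.29 in wild type (SD, n = 8 each). All 8 HeCo arrays were above the wild-type mean, and the groups overlapped. The difference was 0.63 (SE 0.13, 1.54-fold, limma adjusted p = 0.0752), larger than that of any of the 39 motor genes, and it did not pass. It passed when arrays were scaled to equal medians (0.67, limma adjusted p = 0.042) and without HeCo 6 (0.70, limma adjusted p = 0.0157). It did not pass without HeCo 7 and HeCo 16 (0.54, limma adjusted p = 0.300) or without background correction (0.43, limma adjusted p = 0.0632). Only 1 probe was annotated to Dctn1. The remaining dynactin genes lay between -0.09 and 0.10, with Dctn6, of the pointed-end complex, at -0.07 (SE 0.06, limma adjusted p = 0.836).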

How the data were processed

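Total RNA of 16 brain samples had been labelled with biotin and hybridised in 1 colour, per the labels. The table deposited by the authors holds a signal, an intensity on a linear scale, and a detection p-value for each probe and array, and no background subtraction or normalization by the authors was visible in it. Per the submitters' processing notes, GenomeStudio was used; its version is not given in the sources used here. Intensities in the deposited series matrix match a quantile normalization of the same signals to within 0.00474 on the log2 scale, and these served as an alternative.

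Signals were background-corrected and normalized with neqc (limma 3.58.1, R 4.3.3; offset 16; detection p-values gave the level of the negative controls), with log2 values as output; the offset shrinks differences of dim probes. Probes detected (p under 0.05) on 8 or more of the 16 arrays were kept, and the brightest kept probe stood for its gene. Symbols came from the platform annotation and were updated through Entrez identifiers and the RefSeq gene table of GRCm38.p6. The genotypes were compared with limma's lmFit and eBayes (trend on), two-sided, with Benjamini-Hochberg adjustment over all genes and a threshold of 0.05. Correlations used 100000 permutations (exact with 8 arrays) and a limma fit over all genes. An adjustment over the kinesins alone had been planned for them and was replaced, since the motor genes are a chosen list. The scripts were tested on simulated data, and plots were drawn with Python 3.11.15 and matplotlib 3.10.9.

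The motor genes, the lists and the tests were chosen with earlier results of these data known. Lowest, median and highest values over the arrays of each genotype are given for the 14 motor genes of smallest p. They are also given for the heavy chains Dync1h1, Kif5a, Kif5c, Kif1a, Kif3a and Kif11, and for genes whose kept probes differ in sign. Kif5b, also in the rule, had no kept probe. Of each other list, the 2 genes of smallest p are named. Kif22, Kif20b, Dync1i1 and other motor genes outside this rule are named with values chosen after these were seen. Alternatives covered normalization, filter, probe rule, spread, title or description numbers 1 to 8 and 9 to 16 apart, and samples left out. Precision is limited by the number of arrays. The build of the probe design was not used here.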

Additional observations from a re-analysis of the deposited data

Results flagged for a closer look

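Of 78 groups of 8 arrays looked at (39 motor genes in each genotype), 4 held an array whose gap to its nearest neighbour, divided by the range of the group, was above Dixon's critical value for 8 samples; chance alone does so in about 1 in 20 groups. Kif3c, the neuronal partner of Kif3a, had 12.10 on HeCo 16, below the other HeCo arrays. Wild type 10 gave the other 3 among the wild-type arrays: 8.36 for Kif3b, a subunit of the trimeric kinesin-2, the lowest, 5.72 for Kif21b, the lowest, and 5.88 for the mitotic kinesin Kif20a, the highest. Wild type 10 also had the lowest mean deposited signal of all arrays, at 374.9, and the fewest probes detected, 17694, and its part in these values was not tested. Without it the Kif21b difference was 0.13 and the Kif3c difference 0.06.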

How the results depend on the processing

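The count of 0 motor genes past the threshold was 0 under each of 16 alternatives and with each array left out in turn (0 to 0), and none of the 22 motor genes named by the rule passed under any of them. Of those 22, 11 had the same sign under each. No paired analysis was possible because the genotypes share no title number. Over all genes the count of 6 was 10 with the mean of a gene's kept probes, 1 and 2 within title numbers 1 to 8 and 9 to 16, 2 and 1 within description numbers 1 to 8 and 9 to 16, and 2 to 7 with an array left out; without HeCo 5, HeCo 8 or wild type 2 it was 2, and without HeCo 15 or wild type 9 it was 3. The count of 16 probes was 8 with detection required on all 16 arrays. The 2 mitotic kinesins that followed the markers of dividing cells became 0 without HeCo 7 and HeCo 16 (the 2 arrays farthest from the median), within either genotype and within each of these runs of title or description numbers, where fewer arrays enter. Such a run holds 4 arrays of each genotype. The Kif11 correlation itself was 0.14 within description numbers 1 to 8. Whether the smaller number of arrays accounts for the loss of these 2 kinesins was not tested.

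Differences of the other sign came mostly from values near 0. With the mean of kept probes, Kif5a was 0.0096, Dync2h1 -0.017, Kif23 0.014 and Klc1 -0.017. With array weights, Kif3a was -0.015, Dync2h1 -0.076 and Kif1b -0.0098. With arrays scaled to equal medians, Kif11 was 0.032 and Kif22 0.023. Without HeCo 7 and HeCo 16, Kif1a was 0.0026 and Dync1i1 -0.045. Within title numbers 1 to 8, Kif1a was 0.063 and Kif3a -0.093; within 9 to 16, Kif11 was 0.096, Dync2h1 -0.016, Kif1b -0.036 and Kif22 0.023. Within description numbers 1 to 8, Dync2li1 was 0.00067, Klc4 -0.038, Dync2h1 -0.16, Kif1b -0.024 and Kif23 0.040; within 9 to 16, Dynlrb1 was 0.037, Kif1a 0.037 and Klc1 -0.018. With an array left out, the sign turned for Kif1a (-0.074 to 0.014), Kif3a (-0.0015 to 0.13), Kif11 (-0.063 to 0.039), Dync2h1 (-0.038 to 0.062), Kif1b (-0.0096 to 0.055), Kif23 (-0.11 to 0.0078) and Kif22 (-0.063 to 0.025). Without 1 array, other differences moved by over 1.5 times with the same sign: Kifc2 was -0.088 without HeCo 7, Dync1i1 0.024 without HeCo 7, Dync2li1 -0.048 without HeCo 15, Dynlrb1 -0.053 and Kif5c 0.048 without HeCo 6, Klc1 0.011 without wild type 9 and 0.051 without HeCo 13, and Kif20b 0.16 without wild type 3. The correlation with markers of dividing cells turned positive for Kif20a within HeCo (0.142) and within title numbers 1 to 8 (0.792), and for Kif23 within HeCo (0.491), with no background correction (0.0136), within title numbers 1 to 8 (0.173) and within description numbers 1 to 8 (0.613). The cause of these turns was not tested. Dctn1 was past the threshold with equal medians and without HeCo 6 only, its limma adjusted p with an array left out being 0.0157 to 0.182.

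The limma adjustment of the correlations over all genes, the correlations of motor genes other than mitotic kinesins, the correlations within runs of numbers and the alternatives for Kif22, Dync1i1, Kif20b and Dctn1 were added after seeing the data. The promoters shown were also chosen after the correlations were seen.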
